A study of Mus musculus with 24 samples.

Results

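Clic6, Vsnl1, Ccn5, Ecrg4, Tgm5 and Pdzk1ip1 are 6 genes whose RNA was lower in adrenal glands of Kcnk3 null mice when androgen was low, that is, in sham-operated females and in castrated males. They were chosen by their null minus WT differences in these glands and found by gene name in the array files, where Ccn5 stands as Wisp2 and Ecrg4 as 1500015O10Rik. The choice gave 6 genes read by 7 probes, out of 31036 features tested and 55681 probes on the array, and all 7 probes passed the filter on low signal. Because the null minus WT differences in sham females and castrated males chose the genes, these differences are described below with no test.

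The series holds 24 one-colour arrays of adrenal gland RNA from 8 groups of 3 samples. They are female null sham and female WT sham, male null castrated and male WT castrated, male null sham and male WT sham, and female null testosterone and female WT testosterone mice. All samples carry the strain label C57BL/6, null mice are labelled Kcnk3 null, males were castrated and females were injected with testosterone. The labels used here give no age and no design of the null allele, and do not say whether an array stands for 1 animal or a pool, so the p-values measure only the spread between these samples. Below, sham females and castrated males are called the low-androgen groups, and sham males and testosterone females the high-androgen groups.

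Kcnk3 encodes TASK1, a background potassium channel that keeps the resting membrane potential of adrenal cortex cells negative. The outer cortical layer, the zona glomerulosa, makes aldosterone in response to depolarization and calcium entry. Vsnl1 encodes a calcium sensor of the neuronal calcium sensor family that is known as a marker of this layer, and in human adrenal cells it has been linked to aldosterone synthase. Clic6 encodes a member of the chloride intracellular channel family, and Ecrg4 a precursor of secreted peptides. Ccn5 encodes a secreted matricellular protein, Tgm5 a protein-crosslinking transglutaminase best known from skin, and Pdzk1ip1 a small membrane protein that binds the scaffold PDZK1 in kidney tubule.

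The probes are shown because each level below is the level of 1 such target, and because the pair for Pdzk1ip1 shares part of its sequence. Each probe is 60 bases long, and its first 30 bases are printed. Positions are those of mm9 in the array files. The capitals mark AATAAA, the letters of a polyadenylation signal, found in 1 of the 7 printed stretches.
Clic6, chr16:92541363-92541422, + strand: gctcttgtgacattcaaacttggtaaatga
Vsnl1, chr12:11332454-11332513, - strand: agagctgttttggatgaatgcagtatacaa
Ecrg4, chr1:43799321-43799380, + strand: caggctaaaggaaagaatataagtgctttt
Ccn5, chr2:163658717-163658776, + strand: gtatttgtaaaaatacacatctcttaaatg
Tgm5, chr2:120871953-120872012, - strand: acaatcctctgtaaccccattttcagggga
Pdzk1ip1, first probe, chr4:114766409-114766468, + strand: tcctgcaactatggaagtggctcttatttc
Pdzk1ip1, second probe, chr4:114766439-114766498, + strand: tgtgaAATAAAgactttttatacttctggg
The 2 Pdzk1ip1 probes share 30 bases. The first was well above background on 24 of 24 arrays and the second on 13, and the first, with the higher mean, stands for the gene. Well above background is the call of the scanner software. Vsnl1 and Ecrg4 were well above background on 24 arrays, Clic6 on 23, Ccn5 on 16 and Tgm5 on 10.

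Levels are log2 signals relative to the 75th percentile of the signals on the same array, so a gene at 0 lies at that percentile. Levels of different probes are not compared. The share of spots well above background was 57.0% to 64.7% per array, no spot outside the controls was saturated, and precision is limited by the number of arrays. In whole gland RNA, fewer cells of a type and less RNA per cell cannot be told apart.

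Several arrays did not match their labels. At least 10% of the signal of the opposite sex, from Xist or from the Y-linked Ddx3y and Eif2s3y, was found on 9 arrays: female WT sham 2 and 3, all 3 of female WT testosterone, male null sham 1 and 2, and male null castrated 1 and 2. Xist was raised on male null sham 3 and male null castrated 3 too, at 6.08% and 4.15%, against 0.56% to 1.11% in WT males. Female WT sham 1 had Y-linked signal at 1.20%, against 0.11% to 0.18% in null females. Such excess thus went with genotype in every pair, and it remains in the values given below without the 9 arrays. Its part in the differences was not tested. Albumin, a liver transcript, read 8.30 on female null testosterone array 1 and 7.39 on male WT sham array 3, against at most 1.26 on the other arrays. A second marker of the genotype, Abhd1, read 0.68 to 1.72 on the null arrays and -2.88 to -2.06 in female WT sham and male WT sham. The female WT testosterone arrays, at 0.12, -0.73 and 0.22, lay between these ranges. So did arrays 2 and 3 of male WT castrated, at -0.78 and -0.84. Array 1 of that group, at -2.41, lay within the range of the other WT groups. Kcnk3 on all of these arrays was nevertheless at the level of the other WT arrays. The part of the Abhd1 signal in the results of these WT groups was not tested. A group is named by its label throughout.

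Kcnk3 itself read 4.50, 4.19 and 3.20 in the 3 female null sham arrays, against 6.03, 6.20 and 6.47 in female WT sham. In castrated males it read 3.33, 3.07 and 2.85 in null and 5.71, 5.65 and 5.32 in WT arrays. In sham males it read 4.10, 4.97 and 3.97 in null and 5.73, 5.66 and 5.01 in WT arrays, the narrowest gap of the 4 pairs. In testosterone females it read 2.10, 3.02 and 2.27 in null and 5.70, 5.77 and 5.65 in WT arrays. Every null array was below every WT array of its pair, and limma called Kcnk3 lower in 3 of the 4 pairs but not in sham males (-1.12 ± 0.32, SE, adjusted p = 0.654). The probe was still well above background in null glands, and whether it lies in the deleted part is not given in the sources used here.

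In sham females all 6 genes were lower in null than in WT glands, with every null array below every WT array. Over all tested features 6.43% were separated in this direction, and the choice of genes fixed this count, so nothing is read from it. The median difference of the 6 genes was -2.22 on the log2 scale, against -0.02 over all features.

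Clic6 read -1.94, -2.92 and -3.71 in female null sham arrays, against -1.70, -1.75 and -1.19 in female WT sham arrays, a difference of -1.31 ± 0.43 (SE of the limma fit, 3 arrays against 3), or 2.47-fold lower. Vsnl1 read -0.79, -1.45 and -3.18 in null and 0.76, 0.19 and 0.21 in WT arrays, 4.58-fold lower (-2.20 ± 0.52). Ecrg4 read 3.90, 3.94 and 2.63 in null and 5.62, 5.17 and 5.56 in WT arrays, 3.90-fold lower (-1.96 ± 0.29). For these 3 genes the third null array was the lowest, and for Clic6 the first null array lay just under the WT range.

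Ccn5 read -5.58, -5.52 and -4.73 in female null sham arrays, the first and second of them not well above background, against -3.68, -2.98 and -1.93 in female WT sham arrays, a difference of -2.42 ± 0.46. Tgm5 read -6.30, -5.89 and -6.90 in null arrays, none of them well above background, against -4.62, -2.92 and -3.30 in WT arrays, so it was at least 3.32-fold lower. Such a bound sets the mean of the brighter group against the lowest signal well above background on each array of the dimmer one, or the probe's own signal where that is higher. Pdzk1ip1 read -3.60, -3.09 and -1.07 in null and -0.93, 0.34 and -0.43 in WT arrays, 4.75-fold lower (-2.25 ± 0.60). The third null array, lowest for Clic6, Vsnl1 and Ecrg4, was the highest of the null arrays for Ccn5 and Pdzk1ip1, and for Pdzk1ip1 it came close to the lowest WT array. For Ccn5 the lowest signal well above background, -5.58, -5.59 and -4.86 on null arrays 1, 2 and 3, was also highest on the third. Ccn5 lay near it on each, so nothing is read from its order.

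In castrated males the same 6 genes were lower in null than in WT glands, again without overlap. The fitted differences were larger than in sham females for Clic6, Vsnl1, Ecrg4 and Pdzk1ip1, but the 2 conditions were not tested against each other. Within slide 2 Pdzk1ip1 had the other order, at -3.43 in sham females and -3.21 in castrated males. The differences of Ccn5 and Tgm5 are limited by background. Of all features 8.06% were separated in this direction, and the choice of genes fixed this count too. The median difference of the 6 genes was -3.41, against -0.01 over all features.

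Clic6 read -6.28, -4.53 and -5.21 in male null castrated arrays, the first not well above background, against -1.56, -1.10 and -1.17 in male WT castrated arrays, a 16.8-fold lower level (-4.07 ± 0.43). Vsnl1 read -3.16, -3.12 and -3.42 in null and -0.12, -0.12 and 0.24 in WT arrays, 9.40-fold lower (-3.23 ± 0.52). Ecrg4 read 2.65, 2.84 and 2.79 in null and 5.53, 5.49 and 5.47 in WT arrays, 6.68-fold lower (-2.74 ± 0.29). For Vsnl1 and Ecrg4 the arrays of each group lay close together and the groups lay far apart, and both genes stayed well above background in null glands, so they were reduced rather than lost.

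Ccn5 read -5.78, -5.50 and -6.07 in male null castrated arrays, none well above background, against -2.32, -3.03 and -3.88 in male WT castrated arrays, at least 5.35-fold lower. Tgm5 read -7.50, -5.25 and -5.30 in null arrays, none well above background, against -1.03, -2.27 and -2.33 in WT arrays, at least 11.0-fold lower. Pdzk1ip1 read -3.34, -2.16 and -1.61 in null and 1.72, 1.05 and 0.91 in WT arrays, 12.1-fold lower (-3.60 ± 0.60). Ccn5 and Tgm5 are thus the genes of the 6 that no longer rose above background in castrated null males, and Tgm5 was at background in null females as well.

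**Figure D1:**
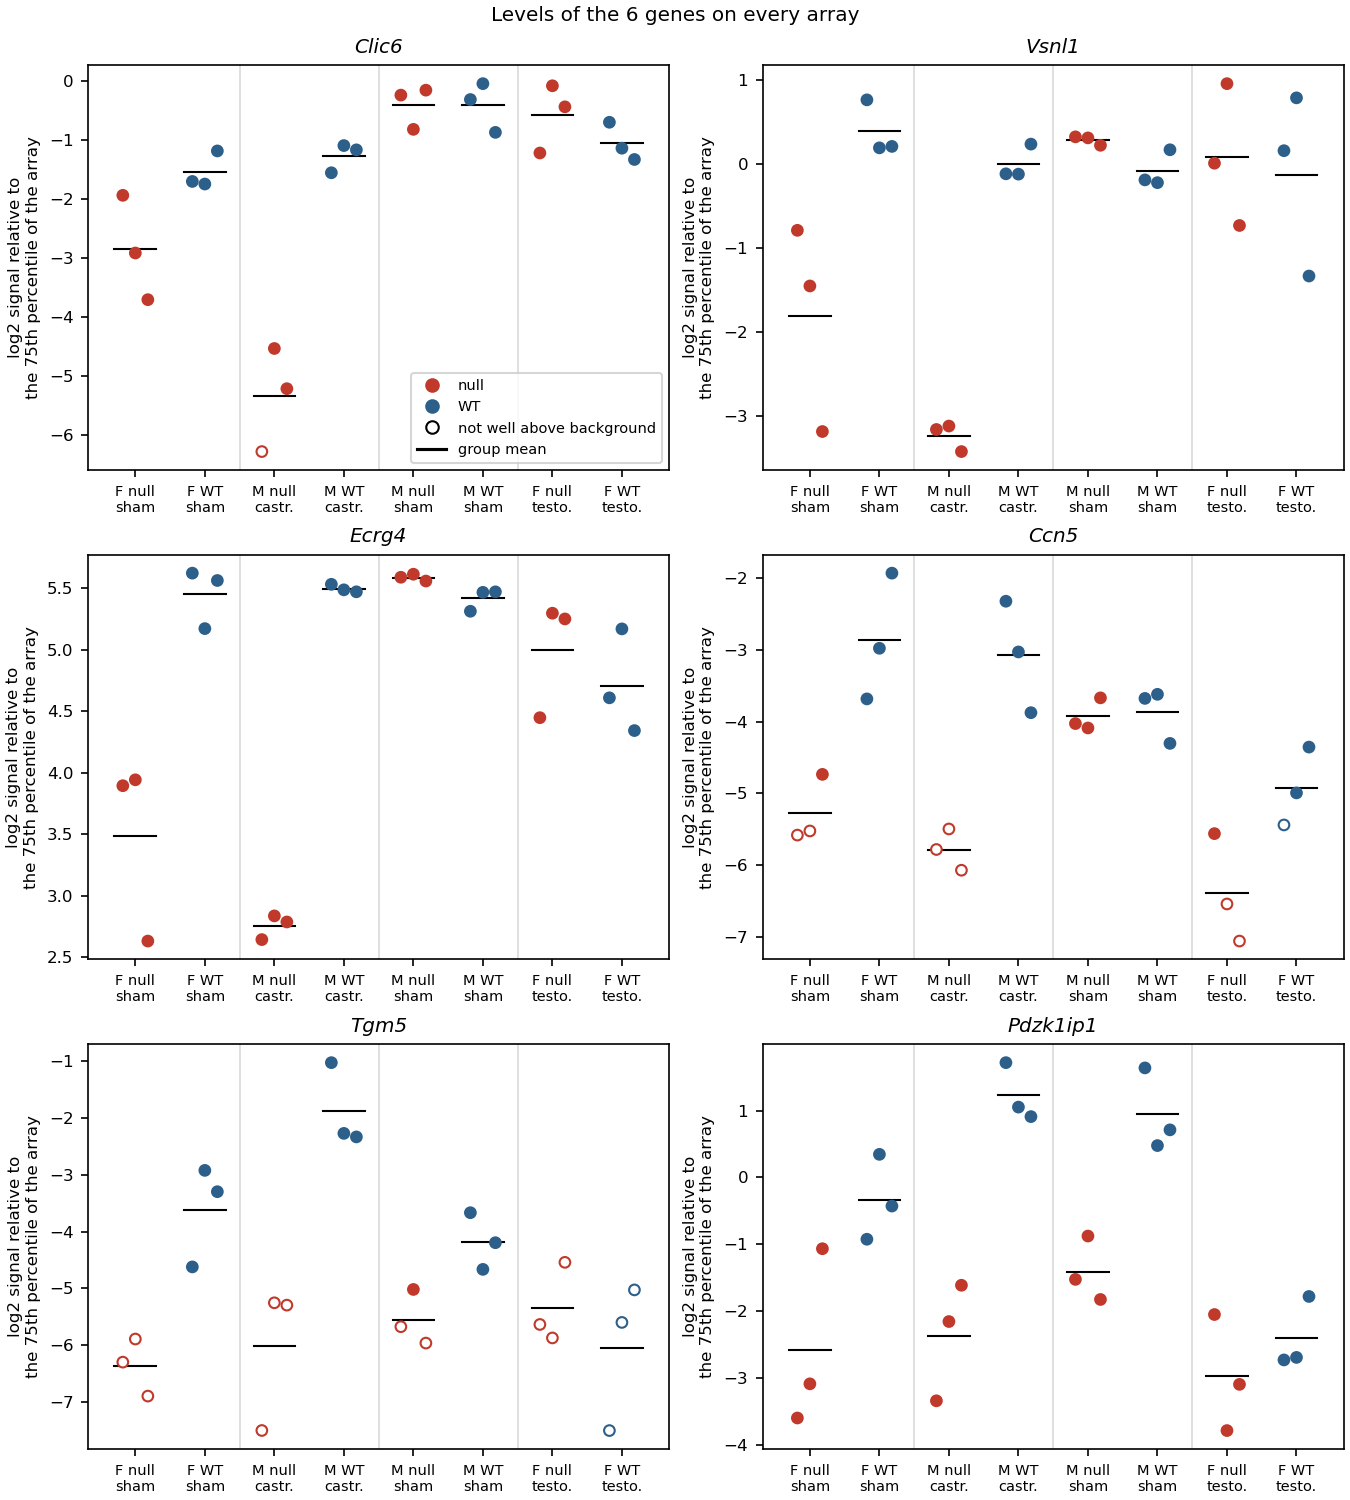
Log2 signal of the 6 genes relative to the 75th percentile of each array, by group, with 1 point per array and a line at the mean of 3 arrays; open points were not well above background. The female null sham and male null castrated arrays lie below their WT arrays in every panel, while in sham males and testosterone females null and WT points of Clic6 lie at like levels, from -1.33 to -0.05.

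Null and WT arrays of the low-androgen groups shared slides, so the difference could be taken within each slide. In sham females it ran from -0.23 for Clic6 to -2.67 for Pdzk1ip1 on slide 1, and from -1.17 for Clic6 to -3.43 for Pdzk1ip1 on slide 2. The third female WT sham array lay on the fourth slide with no null array. In castrated males Tgm5 differed by -6.48, -2.98 and -2.96 on slides 1, 2 and 3, with the null arrays at background, and Ecrg4 by -2.89, -2.65 and -2.68. All 6 genes were below 0 on every slide that held both genotypes. Every null array lay below every WT array in these pairs, so this direction was fixed and nothing is read from it.

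Without the 9 arrays with sex-linked signal against the label, the female WT sham and male null castrated groups keep 1 array each. In sham females the difference was then -1.15 for Clic6, -2.57 for Vsnl1, -2.13 for Ecrg4, -1.60 for Ccn5, -1.74 for Tgm5 and -1.66 for Pdzk1ip1. In castrated males it ran from -3.94 for Clic6 to -2.71 for Ecrg4, with -2.84 for Pdzk1ip1 and -3.42 for Vsnl1. With no overlap between null and WT arrays the direction could not change for any of the 6 genes, so nothing is read from it. The values of Ccn5 and Tgm5 are fitted values, since null arrays were at background.

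The high-androgen groups were not used to choose the genes, and their comparisons were tested over all 31036 features with limma, with Benjamini-Hochberg adjustment and a threshold of 0.05. Here none of the 6 genes was called between null and WT glands, in sham males (0.0838% of all features called) or in testosterone females (0.0354%). At an unadjusted p under 0.05 there was 1 of the 6 in sham males, Pdzk1ip1, where 3.83% of all features were under it, and 1 in testosterone females, Ccn5, where 7.98% were.

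Clic6 read -0.24, -0.82 and -0.16 in male null sham arrays, against -0.32, -0.05 and -0.87 in male WT sham arrays, with a difference of 0.01 (95% interval -0.90 to 0.92, adjusted p = 1.00). The testosterone females read -1.22, -0.08 and -0.44 in null and -0.70, -1.14 and -1.33 in WT arrays (0.48 ± 0.43, adjusted p = 0.938). The groups overlapped in both pairs. The lowest and the highest of the 6 sham male arrays were both WT.

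Vsnl1 in sham males read 0.32, 0.31 and 0.22 in null and -0.19, -0.22 and 0.17 in WT arrays (0.37 ± 0.52, 95% interval -0.73 to 1.47, adjusted p = 0.999). With testosterone, females read 0.01, 0.95 and -0.73 in null and 0.16, 0.79 and -1.33 in WT arrays (0.21 ± 0.52, adjusted p = 1.00). In sham males the null arrays of this calcium sensor gene were all above the WT arrays by a small margin, and in testosterone females both groups spread widely.

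Ecrg4 in sham males read 5.59, 5.62 and 5.56 in null and 5.31, 5.47 and 5.47 in WT arrays (0.17 ± 0.29, 95% interval -0.44 to 0.78, adjusted p = 0.999). Among testosterone females it read 4.45, 5.30 and 5.25 in null and 4.61, 5.17 and 4.34 in WT arrays (0.29 ± 0.29, adjusted p = 0.956). Ecrg4, like Vsnl1, had all null arrays above all WT arrays in sham males, an order that 6.79% of all features showed.

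Ccn5 in sham males read -4.03, -4.09 and -3.67 in null and -3.68, -3.62 and -4.30 in WT arrays (-0.06 ± 0.46, 95% interval -1.02 to 0.90, adjusted p = 0.999). In testosterone females it read -5.56, -6.54 and -7.06 in null arrays, the first alone well above background, and -5.44, -4.99 and -4.35 in WT arrays, the first not well above background (-1.46 ± 0.46, adjusted p = 0.322). The null arrays lay below all WT arrays there, as 5.27% of all features did, with -0.12 within slide 1 and -1.55 within slide 2, and the difference did not pass the adjusted test.

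Tgm5 read -5.68, -5.02 and -5.96 in male null sham arrays, the second alone well above background, against -3.67, -4.67 and -4.20 in male WT sham arrays, all well above it (-1.38 ± 0.66, adjusted p = 0.999). In testosterone females no array of either genotype was well above background, with -5.64, -5.87 and -4.54 in null and -7.50, -5.60 and -5.03 in WT arrays, so no fold is given. The sham male groups of Tgm5 did not overlap, as was true of 7.86% of features in this direction.

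Pdzk1ip1 in sham males read -1.53, -0.88 and -1.83 in null and 1.64, 0.48 and 0.71 in WT arrays, 5.10-fold lower in null glands (-2.35 ± 0.60, unadjusted p = 0.000999, adjusted p = 0.456). In testosterone females it read -2.05, -3.79 and -3.10 in null and -2.73, -2.69 and -1.78 in WT arrays (-0.58 ± 0.60, adjusted p = 0.967). Of the 6 genes it had the widest null minus WT gap in sham males, a gap of the size seen in sham females, and it did not pass the adjusted test. Within slides 1, 2 and 3 it was -3.16, -1.35 and -2.54. The second probe read -5.60, -4.46 and -5.48 in null and -2.29, -3.36 and -3.26 in WT sham males, in the same direction.

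Without the 2 male null sham arrays with Xist signal, the difference in sham males was -2.77 for Pdzk1ip1 and -1.79 for Tgm5, each with an adjusted p of 1 from the single null array left. Without the 2 arrays with albumin, Pdzk1ip1 differed by -2.47 in sham males (adjusted p = 0.322), and in testosterone females Ccn5 differed by -1.87 (adjusted p = 0.138) and Pdzk1ip1 by -1.04 (adjusted p = 0.604). The female WT testosterone group has no array left without the 9, so its comparisons have no such value.

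**Figure D2:**
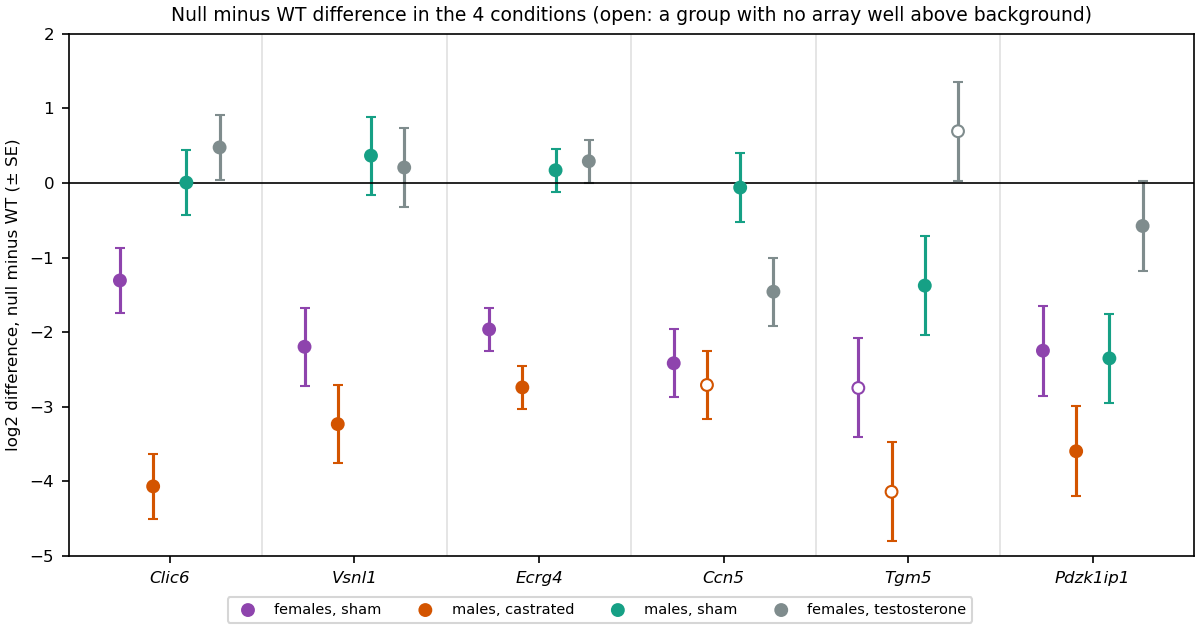
Null minus WT difference (log2) and its standard error in limma, for the 6 genes in 4 conditions, 3 arrays against 3; open points involve a group with no array well above background, so their size is a fitted value and no bound. Purple (sham females) and orange (castrated males) points, the conditions that chose the genes, all lie below 0, and green (sham males) and grey (testosterone females) points lie near 0 for Clic6, Vsnl1 and Ecrg4 but at -2.35 for Pdzk1ip1 in sham males and at -1.46 for Ccn5 in testosterone females.

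The average of the high-androgen pairs called none of the 6 either (0.106% of all features called). The average was -1.46 ± 0.42 for Pdzk1ip1 (limma, adjusted p = 0.293) and -0.76 ± 0.32 for Ccn5 (adjusted p = 0.605), while Clic6 (0.24), Vsnl1 (0.29) and Ecrg4 (0.23) averaged above 0. At an unadjusted p under 0.05 there were 2 of the 6, Pdzk1ip1 and Ccn5, and 7.23% of all features. The difference of the genotype effect between testosterone females and sham males was not called for any of the 6 (0.0419% of all features called). It was 1.77 ± 0.85 for Pdzk1ip1 and -1.40 ± 0.65 for Ccn5 (each adjusted p = 1.00). At an unadjusted p under 0.05 there were 2 of the 6, Ccn5 and Tgm5, and 4.85% of all features.

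Testosterone females were also set against sham males within each genotype. Sex and treatment change together in this comparison and cannot be told apart. In WT glands Pdzk1ip1 was lower in testosterone females, 10.1-fold (-3.34 ± 0.60, limma adjusted p = 0.0121), alone among the 6 genes, where 0.635% of all features were called and 0.126% were called lower. In null glands Ccn5 was lower in testosterone females (-2.46 ± 0.46, adjusted p = 0.0318), alone among the 6, where 0.238% of all features were called and 0.106% were called lower. Within slides 1 and 2 the WT difference of Pdzk1ip1 was -4.37 and -3.17, and within slides 1, 2 and 3 the null difference of Ccn5 was -1.53, -2.45 and -3.39. The null testosterone arrays 2 and 3 were not well above background for Ccn5, so the size of its difference is a fitted value. Without the 2 arrays with albumin the differences were -3.46 for Pdzk1ip1 (adjusted p = 0.0264) and -2.87 for Ccn5 (adjusted p = 0.0158). All 3 female WT testosterone arrays carried Y-linked signal against the label, at 19.3% to 35.9% of the male WT sham level. The call for Pdzk1ip1 rests on these arrays and has no value without them.

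Markers of other cells differed in the same comparisons. The summed X-zone level was 5.86 to 6.78 in female WT testosterone, against -3.58 to -2.20 in male WT sham, and -3.08 to -1.33 in female null testosterone, against -0.17 to 7.08 in male null sham. The summed mesothelium level was 3.32 to 3.41 in female WT testosterone, against 0.70 to 0.97 in male WT sham, and 3.20 to 4.44 in female null testosterone, against 1.48 to 2.46 in male null sham. Their part in the results was not tested.

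Tgm5 was at background in WT testosterone females and at least 2.27-fold lower than in WT sham males, a difference that did not pass (adjusted p = 0.326). The WT groups of Ccn5 and Ecrg4 did not overlap either, with differences of -1.06 and -0.71 that did not pass (adjusted p = 0.492 and 0.448), where 6.97% of all features were separated in this direction. In null glands Ecrg4 (-0.59, adjusted p = 0.422) and Pdzk1ip1 (-1.57, adjusted p = 0.290) did not overlap and did not pass, where 10.2% of features were separated. Clic6 and Vsnl1 overlapped between testosterone females and sham males in both genotypes. The call for Ccn5 in null glands was lost without the 9 arrays with sex-linked signal against the label, which leave 1 male null sham array (-2.72, adjusted p = 0.41). Over all settings run the adjusted p of this call ranged from 0.0011 to 0.41, and that of Pdzk1ip1 in WT glands from 0.000257 to 0.0983. The call for Ccn5 was lost without any 1 of the 3 male null sham arrays or without female null testosterone array 2 or 3, and the call for Pdzk1ip1 without male WT sham array 1 or female WT testosterone array 1 or 2.

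The response to the androgen treatments is given next as a description, since it shares the low-androgen groups with the choice of genes. In null males Clic6 was 30.6-fold lower in castrated than in sham glands (-4.93 ± 0.43), Vsnl1 11.5-fold (-3.52 ± 0.52) and Ecrg4 7.12-fold (-2.83 ± 0.29). In WT males the castrated minus sham difference was -0.86 ± 0.43 for Clic6, 0.08 ± 0.52 for Vsnl1 and 0.08 ± 0.29 for Ecrg4. The null castrated arrays lay below all null sham arrays for these 3 genes, as was the case for 10.9% of all features. In WT males Clic6 was separated downward, as were 8.03% of features, and Ecrg4 upward by its small margin, as were 8.02%.

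In null females the same 3 genes were higher with testosterone than after sham operation, Clic6 by 2.27 ± 0.43, Vsnl1 by 1.89 ± 0.52 and Ecrg4 by 1.51 ± 0.29, without overlap, where 2.77% of all features were separated upward. In WT females the testosterone minus sham difference was 0.49 ± 0.43 for Clic6, -0.52 ± 0.52 for Vsnl1 and -0.75 ± 0.29 for Ecrg4. Ecrg4 lay higher with testosterone on every null array. In WT females its testosterone arrays lay below its sham arrays, as 4.13% of all features did, but array 2 of both groups read 5.17. All 3 WT testosterone arrays carried sex-linked signal against the label.

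The responses of Ccn5, Tgm5 and Pdzk1ip1 are given in the same order. In null males Ccn5 was at background after castration, at least 2.96-fold lower than in sham glands, and Pdzk1ip1 differed by -0.96 ± 0.60 with overlap. In WT males Tgm5 was higher after castration (2.30 ± 0.66) without overlap, Ccn5 differed by 0.79 ± 0.46 with overlap, and Pdzk1ip1 by 0.28 ± 0.60. In WT females all of these 3 genes were lower with testosterone without overlap, where 4.13% of features were separated downward, Ccn5 by -2.07 ± 0.46, Pdzk1ip1 by -2.06 ± 0.60 and Tgm5 at least 3.35-fold. In null females with testosterone Ccn5 differed by -1.11 ± 0.46 and Pdzk1ip1 by -0.39 ± 0.60, each with overlap. Without the 9 arrays, which leave 1 array in each of the null male groups, the castrated minus sham difference in null males was -5.05 for Clic6, -3.64 for Vsnl1, -2.77 for Ecrg4 and -2.40 for Ccn5, but 0.21 for Pdzk1ip1 and 0.67 for Tgm5, whose values turned direction. The testosterone response in null females uses none of the 9. Without the array with albumin it was 2.59 for Clic6, 1.92 for Vsnl1, 1.78 for Ecrg4, -1.52 for Ccn5 and -0.86 for Pdzk1ip1.

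**Figure D3:**
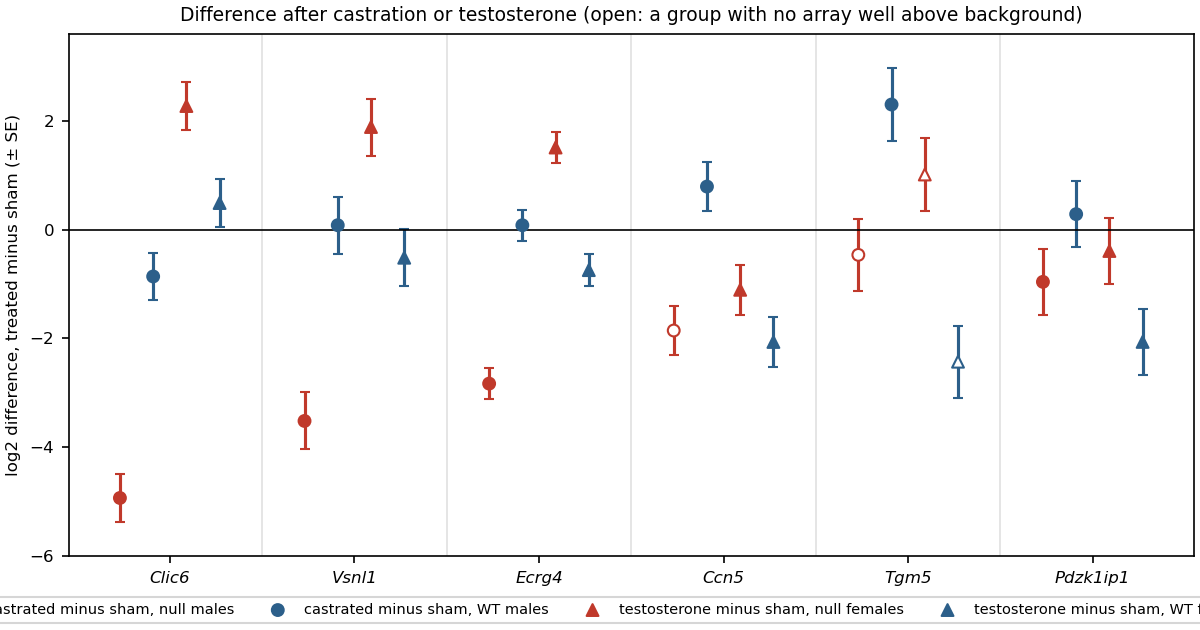
Castrated minus sham difference in males (circles) and testosterone minus sham difference in females (triangles) (log2) and its standard error, null in red and WT in blue, 3 arrays against 3; open points involve a group with no array well above background. Null glands lie at -4.93 after castration and at 2.27 with testosterone for Clic6, and WT glands lie at 2.30 after castration for Tgm5.

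Ordered by mean level, male null castrated was the lowest of the 8 groups for Clic6, Vsnl1 and Ecrg4, with female null sham next above it. For Clic6 these 2 groups did not overlap each other or the WT groups, whereas for Vsnl1 and Ecrg4 they overlapped each other. The other 6 groups formed an overlapping run for Clic6, from -0.41 in male null sham to -1.55 in female WT sham, and for Vsnl1, from 0.39 in female WT sham to -0.13 in female WT testosterone, which also overlapped female null sham. Ecrg4 was highest in male null sham (5.59) and had a second step down, to 5.00 in female null and 4.71 in female WT testosterone glands.

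The order was different for the other 3 genes. Ccn5 was highest in female WT sham (-2.86) and male WT castrated (-3.08) and lowest in female null testosterone (-6.39), with female WT testosterone (-4.93) overlapping the female null sham arrays. Tgm5 stood highest in male WT castrated (-1.88), above all other groups without overlap, and 4 groups had no array well above background and male null sham had 1. Pdzk1ip1 was highest in male WT castrated (1.23) and male WT sham (0.94), female WT sham followed at -0.34, and the 4 null groups and female WT testosterone lay between -1.41 and -2.98.

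Over the 24 arrays Pearson correlations between genes ran from 0.876 to 0.927 within Clic6, Vsnl1 and Ecrg4, and from 0.671 to 0.804 within Ccn5, Tgm5 and Pdzk1ip1. Between the 2 sets they ran from 0.245 to 0.557. These points share arrays, slides and groups, the split into 2 sets was made after the values were seen, and no test applies to it.

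The reading of Kcnk3 differed among null arrays of a group and is set beside the genes as a description. Female null sham array 3 read 3.20 for Kcnk3, -3.18 for Vsnl1, 2.63 for Ecrg4 and -3.71 for Clic6, values close to those of the male null castrated arrays for Vsnl1 and Ecrg4. Female null sham array 1 read 4.50 for Kcnk3, -0.79 for Vsnl1, 3.90 for Ecrg4 and -1.94 for Clic6. Female null testosterone arrays read 2.10, 3.02 and 2.27 for Kcnk3, in the range of the male null castrated arrays or under it, while Vsnl1 lay between -0.73 and 0.95. The part of the Kcnk3 reading in these levels was not tested.

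**Figure D4:**
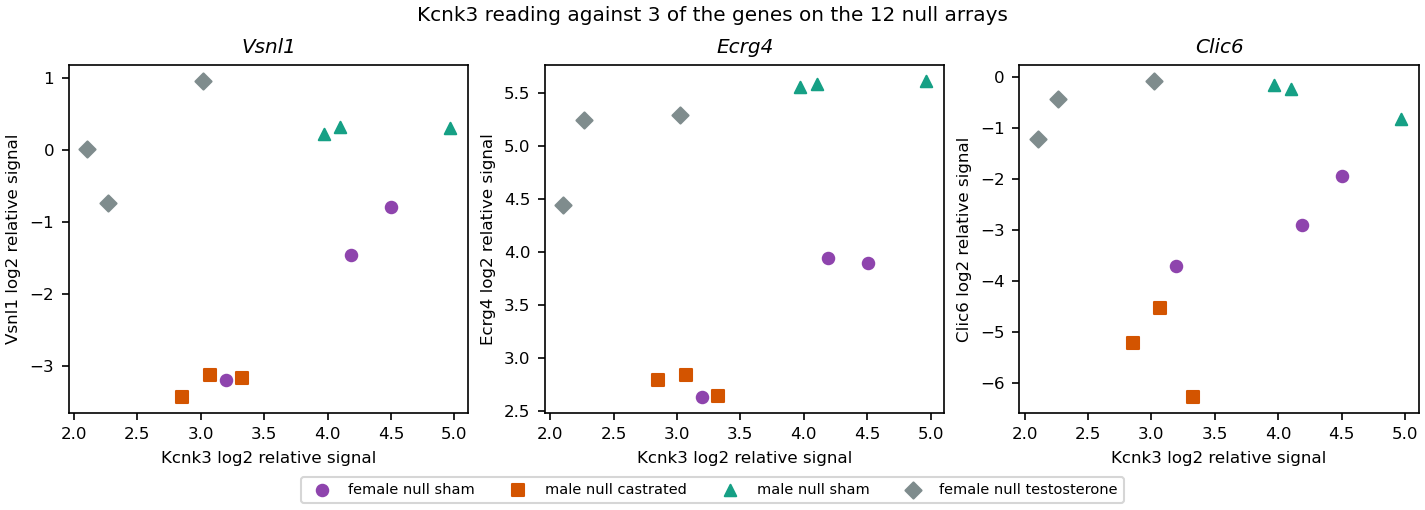
Log2 relative signal of Vsnl1, Ecrg4 and Clic6 (vertical axes) against that of Kcnk3 (horizontal axes) on the 12 null arrays, with 1 symbol per array and a shape for each group. Female null testosterone arrays have Kcnk3 readings of 2.10 to 3.02, at or under the male null castrated arrays, and lie above those arrays on all 3 vertical axes, and female null sham array 3 (Kcnk3 3.20) lies with the male null castrated arrays for Vsnl1 and Ecrg4.

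Genes closely related to the 6 were taken from lists drawn up with earlier results of these data known. In the chloride intracellular channel family 4 relatives of Clic6 were tested, and Clic5 rose in null glands where Clic6 was low. In sham females Clic5 read 2.79, 2.67 and 2.14 in null and 0.92, 1.23 and 1.34 in WT arrays (1.37 ± 0.20, limma adjusted p = 0.00166), where 0.49% of all features were called. In castrated males it read 3.22, 2.70 and 2.54 in null and 1.47, 1.56 and 1.24 in WT arrays (1.40 ± 0.20, adjusted p = 0.000984), where 0.722% were called. In neither comparison did the null and WT arrays overlap, and without the 9 arrays with sex-linked signal, which leave 1 array in a group, Clic5 differed by 1.62 ± 0.29 in sham females (adjusted p = 0.0690) and by 1.11 ± 0.29 in castrated males (adjusted p = 0.401).

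At high androgen Clic5 in males read 1.54, 1.53 and 1.35 in null and 2.01, 1.93 and 1.58 in WT arrays (-0.37 ± 0.20, adjusted p = 0.999). In testosterone females it read 2.01, 1.76 and 1.66 in null and 2.32, 2.27 and 2.18 in WT arrays, with no overlap and no call. Clic1, Clic3 and Clic4 were not called in any of the 4 null against WT comparisons.

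**Figure D5:**
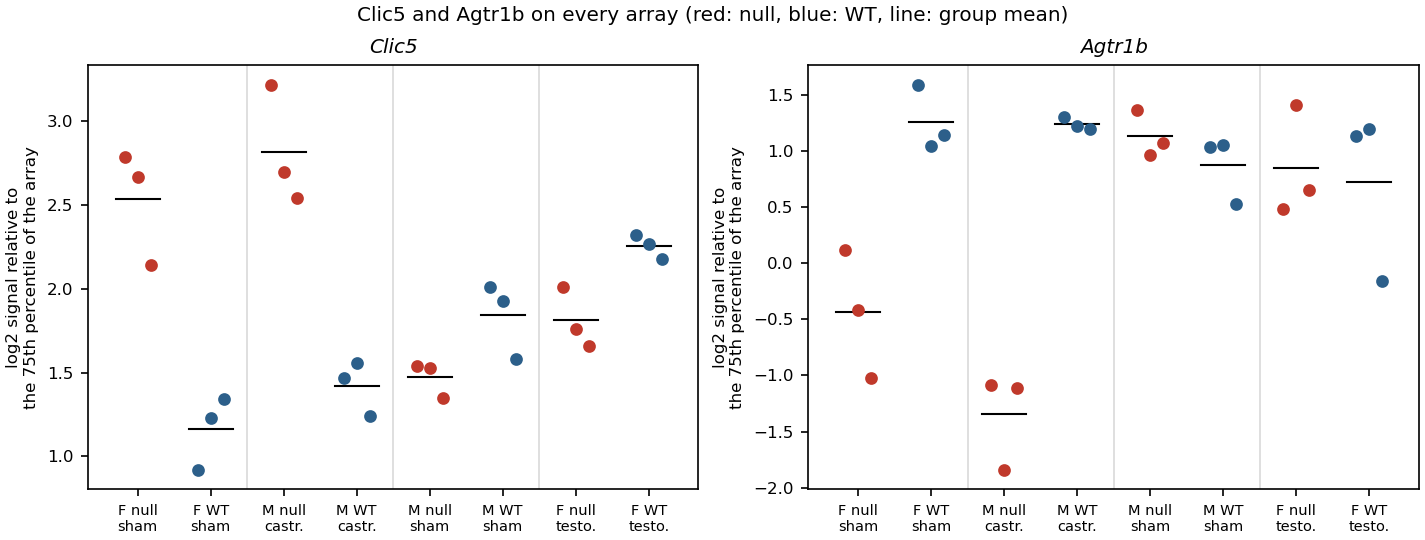
Log2 relative signal of Clic5 and Agtr1b by group, with 1 point per array and a line at the mean of 3 arrays. Clic5 is higher in female null sham and male null castrated than in their WT arrays (2.14 to 3.22 against 0.92 to 1.56), and Agtr1b is lower (-1.84 to 0.12 against 1.04 to 1.59).

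Relatives of the other genes showed few calls. Of the neuronal calcium sensors 10 of 12 were tested and none was called in the 4 comparisons, the smallest p in castrated males being that of Hpcal1 (0.38 ± 0.15, adjusted p = 0.505) and in sham females that of Ncs1 (0.35 ± 0.16, adjusted p = 0.492). Of 5 other CCN genes 4 were tested with none called, among them Ccn3 in sham females (0.94 ± 0.63, adjusted p = 0.732) and Ccn4 in castrated males (-0.54 ± 0.31, adjusted p = 0.885). Of 7 other transglutaminase genes 5 were tested with none called, Tgm4 being at -0.91 ± 0.32 in sham females (adjusted p = 0.287) and Tgm2 at 0.30 ± 0.19 in castrated males (adjusted p = 0.932).

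In the network of the scaffold PDZK1, which includes its relatives and the transporters it binds, 7 of 10 genes were tested and none was called, with Slc9a3r2 at 0.48 ± 0.18 in castrated males (adjusted p = 0.409). Of 9 receptors reported to bind the Ecrg4 peptide or its partners, the scavenger receptor gene Olr1 was called in sham males, where it read -3.91, -5.36 and -2.49 in null arrays, against WT arrays that were none of them well above background, and was at least 2.99-fold higher in null glands (limma adjusted p = 0.0478). No receptor was called in the low-androgen comparisons, where Tlr4 had the smallest p (-0.27 ± 0.19 in sham females, adjusted p = 0.758). The call for Olr1 was lost under most other settings, as given in the closing section.

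Marker genes of adrenal layers and of neighbouring tissues were read in the same comparisons. Of 8 zona glomerulosa markers Agtr1b, an angiotensin II receptor, fell in null sham females, reading 0.12, -0.42 and -1.02 against 1.59, 1.04 and 1.14 in WT (-1.70 ± 0.35, limma adjusted p = 0.0326). In castrated males Agtr1b read -1.09, -1.84 and -1.11 in null and 1.30, 1.22 and 1.19 in WT arrays (-2.59 ± 0.35, adjusted p = 0.000715). Cyp11b2, aldosterone synthase, rose there, reading 3.31, 1.83 and 2.97 in null and -1.04, 0.42 and -0.18 in WT arrays (2.97 ± 0.49, adjusted p = 0.00382). In castrated males markers of 1 layer thus moved in both directions beside the 6 genes. In sham females Cyp11b2 differed by 0.02 ± 0.49 and was not called (limma adjusted p = 0.996). The other markers of this list were not called in any null against WT comparison. Without the 9 arrays the castrated male differences were -2.35 for Agtr1b and 3.23 for Cyp11b2 (adjusted p = 0.137 and 0.225) and the sham female difference was -2.03 for Agtr1b (adjusted p = 0.118). The summed level of the 8 markers was 6.45 to 6.61 in null and 6.70 to 7.02 in WT sham females, and 6.45 to 6.64 in null and 6.77 to 7.02 in WT castrated males.

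None of 6 zona fasciculata markers was called, and their summed level overlapped between null and WT in sham females and castrated males. Of 3 X-zone markers none was called in either, with a summed level of 3.29 to 6.76 in null and 7.11 to 8.61 in WT sham females and an overlap in castrated males. In castrated males the hedgehog target Gli1, 1 of 6 capsule and stroma markers, rose in null glands (1.60 ± 0.36, adjusted p = 0.0493), as did Upk3b, 1 of 4 mesothelium markers (2.38 ± 0.52, adjusted p = 0.0365). Without the 9 arrays these were 1.28 for Gli1 and 1.89 for Upk3b (each adjusted p = 1.00), and without the 2 arrays with albumin Upk3b had an adjusted p of 0.0513. In sham females Gli1 differed by 1.42 ± 0.36 and was not called (limma adjusted p = 0.0996). The summed level of the 6 capsule and stroma markers was 6.71 to 6.84 in null and 6.32 to 6.55 in WT sham females. In castrated males this sum was 6.25 to 6.65 in null and 5.88 to 6.22 in WT arrays. The 2 red cell markers tested summed to 7.38 to 7.97 in null and 5.79 to 6.55 in WT castrated males, with no call. In sham males the X-zone gene Akr1d1 was called higher in null glands (6.79 ± 1.20, adjusted p = 0.0415), with 1 WT array well above background, a call lost without the 9 arrays (5.22 ± 2.02, adjusted p = 1).

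Pdzk1ip1 is known from kidney, so kidney markers were read beside it. Umod and Slc12a3 were well above background on 0 arrays and Slc12a1 on 1, and 5 of the 8 markers were tested with none called. Their summed level overlapped between null and WT in sham females (-1.38 to -0.47 and -1.69 to -0.33), castrated males (-2.23 to -1.52 and -2.31 to -1.89) and sham males (-2.46 to -1.86 and -2.03 to -1.70). It did not overlap between WT testosterone females (-1.34 to 0.04) and WT sham males, the comparison in which Pdzk1ip1 was called. There the kidney sum was higher in the females and Pdzk1ip1 lower. Of the 6 medulla, 6 adipocyte, 5 liver, 3 immune and 3 endothelium markers none was called in the 4 comparisons. The part of other cells in the levels of the 6 genes was not tested.

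Genes with the most similar pattern were ranked by the Pearson correlation over the 24 arrays with the mean of the 6 genes, each scaled to its own spread. Pcdh19, a cell adhesion gene, came first at 0.892, with a mean of -0.46 in female null sham and 0.90 in female WT sham, and of -0.89 in male null castrated and 0.79 in male WT castrated arrays. Mfsd4a (0.863), Steap2 (0.855), Prr36 (0.852), Lrrc55 (0.851), Recql4 (0.846), Agtr1b (0.843), Rasgrf1 (0.842), Tafa4 (0.837) and Steap1 (0.831) followed. The ranking includes the low-androgen arrays that chose the 6 genes, so genes that fall in null glands there rank high by this choice. Agtr1b, of the zona glomerulosa list, was already given as lower in those glands, so its place here is no separate result.

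The most opposite pattern was that of Wipf3, a gene of the WASP-interacting protein family, at -0.956. Its mean was 1.28 in female null sham and -1.50 in female WT sham, and 1.63 in male null castrated and -2.01 in male WT castrated arrays, while testosterone females lay between at 0.07 in null and 0.24 in WT. Ankrd34b (-0.916), Mtss2 (-0.899) and DXBay18 (-0.886) were also among the most opposite. The arrays share groups and slides and include those that chose the genes, so these values describe likeness only.

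Gene by gene, Vsnl1 was most like Agtr1b (0.952) and Ecrg4 (0.927), and Ecrg4 most like Agtr1b (0.940) and Vsnl1. Clic6 was most like the Wnt inhibitor gene Wif1 (0.889) and Ecrg4 (0.884). Tgm5 was most like Pdzk1ip1 (0.804) and Synpo2 (0.766), Pdzk1ip1 most like Recql4 (0.831) and Mageb16 (0.813), and Ccn5 most like Fndc7 (0.840) and Mfsd4b3-ps (0.839).

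Since Vsnl1 and Ecrg4 had the highest correlation among the 6 genes, the 250 bases before a start of each are printed, from RefSeq on GRCm38.p6. Promoter entries matched 4 of the 6 genes, Vsnl1 with 2 starts, and Clic6 and Ccn5 had none. Each was searched on both strands for AAGGTCA, the half-site of NR5A1 and NR4A factors, AGAACA, the half-site of androgen and glucocorticoid receptors, TGACGTCA, the cyclic AMP response element, and CTTTGAT, the TCF/LEF motif. Of 32851 mouse promoter windows of this length 4.08%, 16.1%, 1.55% and 3.21% hold these motifs, which do not overlap one another. Capitals mark a match.
Ecrg4, chr1:43730352-43730601, + strand: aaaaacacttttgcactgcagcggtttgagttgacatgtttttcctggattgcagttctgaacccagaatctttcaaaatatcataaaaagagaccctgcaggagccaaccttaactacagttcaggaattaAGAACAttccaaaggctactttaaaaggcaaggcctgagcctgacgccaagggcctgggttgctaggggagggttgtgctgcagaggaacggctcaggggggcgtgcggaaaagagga
Vsnl1, second start, chr12:11435652-11435901, - strand: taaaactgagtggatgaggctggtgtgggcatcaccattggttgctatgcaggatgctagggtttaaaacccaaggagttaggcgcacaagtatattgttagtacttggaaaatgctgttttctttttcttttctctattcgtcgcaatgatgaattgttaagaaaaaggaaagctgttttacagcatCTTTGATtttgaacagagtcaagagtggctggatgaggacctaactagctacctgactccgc
The Ecrg4 window holds AGAACA 118 to 113 bases before the start, and the second Vsnl1 window holds CTTTGAT 62 to 56 bases before it. No match was found in the windows of the first Vsnl1 start, Tgm5 and Pdzk1ip1. A match describes the letters of the window only.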

How the data were processed

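RNA of 24 mouse adrenal samples had been hybridized to one-colour Agilent arrays (mm9 probe positions). The deposited scanner files give spot intensities of Feature Extraction 10.7.3.1, per the file headers, including a processed intensity with background already subtracted. The authors' deposited values are log2 numbers that follow the median signal (lowest Spearman correlation 1.0), with column medians of 6.33 to 6.34, so they appear to be quantile normalized; their background treatment is not given in the sources used here.

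Here, log2 of the processed intensity minus the 75th percentile of each array was used. Control spots and 160 to 283 outlier spots per array were left out, spots of a probe were averaged, and probes well above background on at least 3 arrays were kept (36832). The probe with the highest mean stood for a symbol, giving 31036 features, 20722 with a symbol; names were updated by RefSeq accession for 26521 probes and by symbol for 4504, and 4742 kept the file's name. The 75th percentile was 423 to 1092 and RNA integrity numbers 3 to 9. The number was 3 for female WT sham array 3 and female WT testosterone array 3, the only arrays on the fourth slide. It was 7 for female null sham array 3 and 5 for female null testosterone array 3.

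Group means were fitted in R 4.3.3 with limma 3.58.1 (lmFit, eBayes; 16 residual degrees of freedom), Benjamini-Hochberg adjusted over all features, with calls under 0.05. Of 14 comparisons, 6 were tested for the members, all among high-androgen groups. The members and gene lists were chosen with earlier results of these data known. Named genes were all members and their probes, the 10 most and 5 least like them (1 of the 5 is not reported here), the 2 most like each member, and called list genes or the list gene with the smallest p; comparisons that share groups are not independent. The procedure was run on simulated data with independent arrays. These lack the likeness of same-numbered arrays seen here, so nothing is read from that run. Tables were handled with pandas 2.3.3 in Python 3.11.15 and figures drawn with matplotlib 3.10.9.

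Arrays lay on 4 slides. Alternatives were normexp with an offset of 50 and quantile normalization, quantile normalization alone, the deposited table, other filters, every probe, replicate and slide blocks, RNA integrity, array weights, a trended robust fit, and omission of arrays.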

Additional observations from a re-analysis of the deposited data

Results flagged for a closer look

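The genotype effect ran in opposite directions, on every array, for 2 genes. Vsnl1 was lower in null than in WT castrated males (-3.23) and higher in null than in WT sham males (0.37), so the effects differed by -3.60. Ecrg4 showed the same order (-2.74 and 0.17), differing by -2.91. Against sham males the sham female effect differed by -2.56 for Vsnl1 (-2.20 in sham females) and by -2.13 for Ecrg4 (-1.96). The effects of treatment on Ecrg4 also opposed each other. Castrated minus sham was -2.83 in null and 0.08 in WT males, differing by -2.91. Testosterone minus sham was 1.51 in null and -0.75 in WT females, differing by 2.25, although array 2 of both WT groups read 5.17. These differences were not tested, since each uses low-androgen groups that chose the genes, and the small positive effects in sham males and the 0.08 in WT males are within their standard errors.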

How the results depend on the processing

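In all 450 member values over 38 settings the low-androgen null minus WT difference stayed below 0. These differences chose the genes, and their null and WT arrays did not overlap, so nothing is read from this count. Under the high-androgen tests none of 1326 member values turned direction where it was called, and 44 uncalled values changed sign. The median over members moved by more than its spread in sham females to -1.30 with normexp and quantile normalization, -1.47 in the deposited table and -1.70 without the 9 arrays with sex-linked signal, and in castrated males to -2.31 with normexp and -2.60 in the deposited table; the cause was not tested. Leaving out each array gave medians of -2.28 to -2.01 in sham females and -3.56 to -3.19 in castrated males.

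With array weights 1 member, Pdzk1ip1, was called lower in null sham males and 1 in the average of the high-androgen pairs, 3 were called between WT and 2 between null testosterone females and sham males, and 2 family genes in castrated males. Under these weights 1.6%, 1.16%, 5.86%, 4.54% and 3.07% of all features were called in these comparisons, in that order; the cause was not tested. The call between null testosterone females and sham males (Ccn5) gave 0 with normexp, in the deposited table, with the filter on all 24 arrays, which leaves 3 members, and without the 9 arrays. Leaving out each array gave 0 to 1 members there and 0 to 1 between WT groups, and 0 members in the other tests. Pdzk1ip1 between WT groups was lost without male WT sham array 1 or female WT testosterone array 1 or 2, and Ccn5 between null groups without any of the 3 male null sham arrays or female null testosterone array 2 or 3, each time with fewer samples. The single family call in sham males (Olr1) gave 0 with normexp, the deposited table, no filter, the filter on all arrays, the replicate block, without the fourth slide and without the 2 arrays with albumin, and 0 to 1 when each array was left out. Without the 9 arrays 0 family genes were called in sham females and 0 in castrated males, against 1 (Clic5) in each, and leaving out each array gave 1 in both.

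Same-numbered arrays correlated by 0.226 on average (-0.353 to 0.685), with 20 of 24 arrays correlating best with their own number, which mostly coincides with the slide, so the numbers were not taken as pairs. The replicate block left 0, 0, 0, 0, 1 and 1 members called in the 6 tests. Ccn5 and Tgm5 are limited by signal over background. Alternatives without the 9 arrays gave no value where female WT testosterone is needed.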
